A study of Rattus norvegicus with 12 samples.

Results

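The 9 genes described here prepare peptides for MHC class I molecules: the light chain B2m, the peptide transporter subunits Tap1 and Tap2, the loading chaperone Tapbp, the immunoproteasome subunits Psmb8, Psmb9 and Psmb10, and the proteasome activator subunits Psme1 and Psme2. They were chosen as the probes whose gene name on the array equals one of these names, and all 9 of the 9 names were found among the 26612 genes named on the array, each with 1 probe. RNA came from dispersed cervix cells of adult female Sprague Dawley rats, an outbred stock, after perfusion with saline. The 4 groups of 3 rats were whole cervix at day 21 of gestation (D21), the day before birth was expected, whole cervix of nonpregnant rats in proestrus (NP), and cervix of other D21 and other NP rats after macrophages (Mφs) had been removed. Removal used the ED1 antibody, which binds the Cd68 protein, and magnetic beads. The cells of the depleted groups went through antibody and bead steps that the cells of the whole groups did not, so that Mφ removal and this handling cannot be told apart. Each array held 1 rat and no rat was on 2 arrays, so whole and depleted cervix were never taken from the same animal.

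Class I molecules carry peptides from inside the cell to its surface, where cytotoxic T cells and natural killer cells survey them. The peptides are cut by the proteasome. Interferon-γ replaces the catalytic subunits Psmb5, Psmb6 and Psmb7 of the constitutive proteasome with Psmb8, Psmb9 and Psmb10 to form the immunoproteasome, and the PA28 activator made of Psme1 and Psme2 caps it. Tap1 and Tap2 pump peptides into the endoplasmic reticulum, Tapbp (tapasin) holds an empty class I molecule beside them, and B2m completes the loaded molecule. Most nucleated cells make these proteins, and Mφs, as antigen-presenting cells, are one of the cell types known for them.

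The 9 genes lie on 4 chromosomes. In the rn4 positions of the array files, Tap1, Tap2, Tapbp, Psmb8 and Psmb9 are on chromosome 20, which carries the rat MHC, Psme1 and Psme2 are on chromosome 15, B2m is on chromosome 3 and Psmb10 on chromosome 19. The probes of Psmb8, Psmb9 and Tap1 are shown because they are the 60-base stretches that the values of these genes rest on. Each has at least 1 reading frame without a stop codon.
Psmb8 probe (chr20:4787980-4788039, - strand): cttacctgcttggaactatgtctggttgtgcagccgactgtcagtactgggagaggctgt
Psmb9 probe (chr20:4806341-4806400, + strand): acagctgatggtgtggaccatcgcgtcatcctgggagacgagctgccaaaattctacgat
Tap1 probe (chr20:4793943-4794002, - strand): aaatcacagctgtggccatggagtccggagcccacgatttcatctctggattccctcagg

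The promoters were searched for elements that these genes are known for, in the window from 250 bases before to 50 bases after the start of each gene (RefSeq, build GRCr8), on both strands. The interferon-stimulated response element, which factors of the IRF family bind, was searched for as GAAA, any 2 bases and GAAA again. It was present in 7 of the 9 members and in 3.92% of all 33469 promoters of the same length. Among the subunits of the constitutive 20S proteasome, 2 of 13 promoters held it, those of Psma4 and Psmb3, and those of Psmb5, Psmb6 and Psmb7 did not. The promoters with a match are printed with the matched letters in capitals, for Psmb10 the whole 250 bases upstream of the start and for the others the bases around the match.
B2m (chr3:129549155-129549214, + strand): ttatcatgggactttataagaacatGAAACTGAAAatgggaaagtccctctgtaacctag
Tap1 (chr20:4668630-4668689, - strand): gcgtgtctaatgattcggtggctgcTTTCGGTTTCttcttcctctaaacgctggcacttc
Tap2 (chr20:4652303-4652362, - strand): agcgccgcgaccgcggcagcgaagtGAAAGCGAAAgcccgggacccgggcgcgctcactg
Tapbp (chr20:4967878-4967928, - strand): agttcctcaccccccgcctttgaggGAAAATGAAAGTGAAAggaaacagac
Psmb8 (chr20:4657026-4657060, - strand): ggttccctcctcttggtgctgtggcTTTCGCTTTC
Psmb10 (chr19:50743293-50743542, - strand): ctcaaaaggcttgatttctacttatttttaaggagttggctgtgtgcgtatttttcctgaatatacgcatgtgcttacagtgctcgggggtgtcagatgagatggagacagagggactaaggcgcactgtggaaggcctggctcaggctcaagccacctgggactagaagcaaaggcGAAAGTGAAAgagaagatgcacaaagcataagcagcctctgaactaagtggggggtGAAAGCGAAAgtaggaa
Psme2 (chr15:33052770-33052829, - strand): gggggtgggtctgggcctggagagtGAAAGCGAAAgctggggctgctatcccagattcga
Psmb10 held 2 matches and Tapbp 2 that overlap each other, and the match of Tap1 and of Psmb8 is on the opposite strand. The match of Psmb8 lies across the start. Psmb9 and Psme1 had no match in this window. Tap1 and Psmb9 are transcribed away from each other from starts 457 bases apart, and the match of Tap1 ends 336 bases from the start of Psmb9, outside the window searched for that gene. The site that NF-κB binds, searched for as GGG, any 2 bases and TTTCC, was in B2m, Tap1 and Tapbp and in 1.53% of all promoters. A match describes the letters and does not show that a factor binds there.

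Levels are given as the log2 of the array signal minus the log2 of the 75th percentile of that array, so that 0 is the 75th percentile and a difference of 1 is a 2-fold difference. They are signals of different probes and were not compared between genes. The scanner software rated all 9 members as well above background on all 12 arrays, while 44.9% to 61.7% of all probes of an array reached that rating. A gene was called where its adjusted p from limma, over all genes tested, was under 0.05. In these bulk samples, fewer cells of a type and less RNA in each cell cannot be told apart.

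The make-up of the samples differed between the groups in more than Mφs. Of the Mφ marker list, 12 of 15 genes tested were higher in whole than in depleted cervix of D21 rats and 11 of 13 in NP rats. These stand beside 11.9% and 17.0% of all genes called higher, and none of the list were lower. The median differences were 5.04 and 6.07 on the log2 scale. Of the 15 genes, 3 were well above background on no depleted D21 array and 6 on no depleted NP array. These medians therefore rest in part on values at background. No depleted array measured Adgre1 well above background, and whole cervix exceeded depleted cervix at least 36.6-fold for D21 and at least 39.6-fold for NP rats (limma adjusted p = 1.24e-05 and 4.26e-06). Csf1r was well above background on 1 of the 3 depleted arrays in each state. The Cd68 transcript, whose protein ED1 binds, did not pass the test, with differences of -0.15 in D21 and 0.54 in NP rats. The mean log2 level of 10 smooth muscle genes ranged from 4.40 to 4.84 in whole and from -0.09 to 0.40 in depleted NP cervix, and that of 10 fibroblast genes from 3.97 to 4.11 and from -0.93 to 0.32. In D21 rats smooth muscle ranged from 3.62 to 4.04 in whole and from 0.92 to 2.04 in depleted cervix, and fibroblast genes from 3.72 to 4.13 and from 2.27 to 3.06. The mean of 10 epithelial genes was lower in whole cervix, from 2.80 to 3.11 against 4.24 to 4.59 in NP rats and from 4.19 to 4.57 against 4.84 to 4.99 in D21 rats. Of these 10 genes, 8 were called higher in D21 than in NP whole cervix, with a median difference of 1.57. The mean of 15 immediate-early genes was higher in depleted cervix, from 1.53 to 1.90 against -1.14 to -1.09 in D21 rats and from 0.477 to 0.996 against -1.61 to -1.503 in NP rats. Cd3e, which marks T cells, was well above background on none of the 12 arrays, while other genes of the T and NK cell list could be tested. Of these, 2 of 5 were higher in whole than in depleted cervix of D21 rats (beside 11.9% of all genes) and 1 of 2 in NP rats (beside 17.0%). In depleted NP cervix 0 of the 10 genes were well above background on all arrays, so the 2 tested there passed the filter only through whole cervix. Between D21 and NP whole cervix 1 of 5 was higher and 1 lower in D21 rats, beside 5.88% of all genes called in either direction. The mean of the 9 members ranged from 1.83 to 2.37 in whole and from 1.304 to 2.25 in depleted NP cervix, and from 1.86 to 2.06 and 1.99 to 2.22 in D21 rats, so that the groups overlapped. The part of each cell type in the results that follow was not tested.

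**Figure D1:**
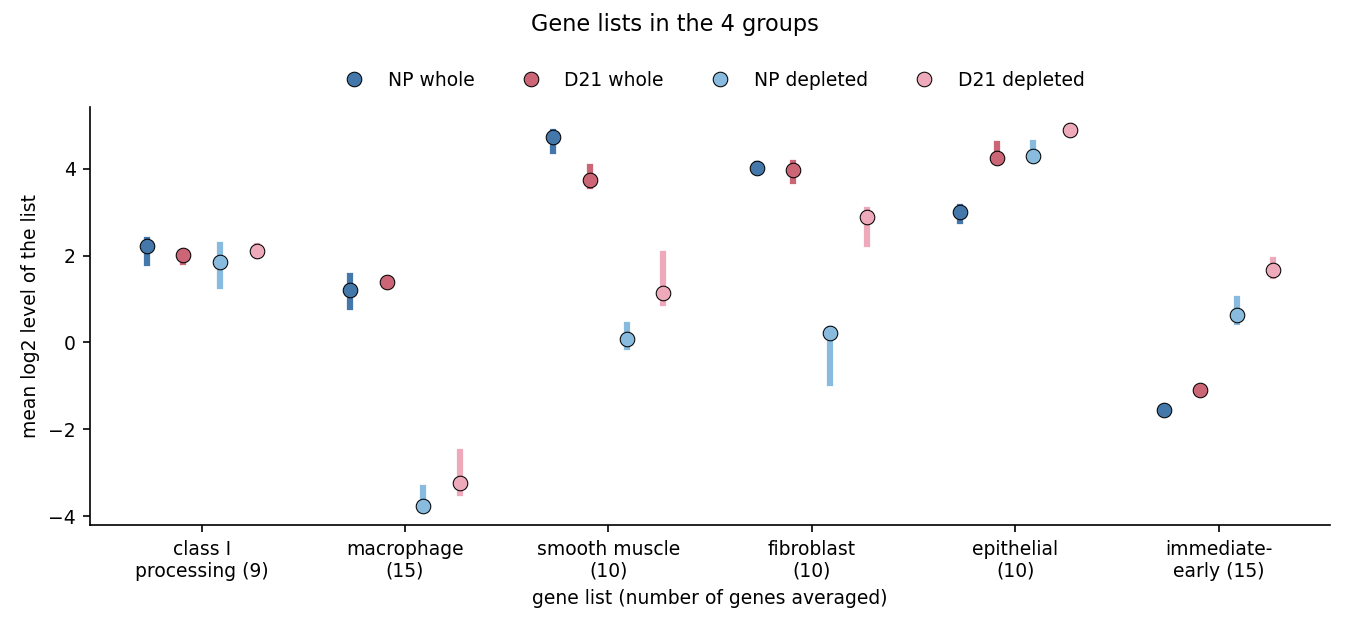
Mean log2 level of the 9 class I processing genes and of 5 marker lists (vertical axis, 0 is the 75th percentile of the array) in the 4 groups of 3 rats. Points are the median rat and bars run from the lowest to the highest rat. The class I processing genes overlap between the groups, while the Mφ list lies between 0.81 and 1.54 in whole and between -3.77 and -2.52 in depleted cervix.

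Few members were called in the comparisons. With only 9 members, a count near or below the share of all genes cannot be read as a result about them. A member that was not called was not shown to be equal between groups. Removal of Mφs was asked about within each state. In NP rats, 2 of 9 members were higher in whole cervix and 0 lower, a share of 22.2%, beside 17.0% of all 13409 genes tested that were called higher, 15.8% called lower and 32.8% called in either direction. The median difference of the members was 0.29, beside -0.04 over all genes. In D21 rats, 0 of 9 members were called, beside 22.4% of 14256 genes, with a median of -0.23 beside -0.06. Between D21 and NP rats 0 of 9 were called in whole cervix, beside 5.88% of 14056 genes, and 0 of 9 in depleted cervix, beside 4.59% of 13406 genes. For the difference between the depletion contrasts of D21 and NP rats, the interaction, 0 of 9 were called, beside 2.4% of 14565 genes. At an unadjusted p under 0.05 in limma, 1 member (11.1%) passed in each of the comparisons with 0 calls, beside 22.7% of all genes in D21 against NP whole cervix, 38.9% in D21 depletion, 21.7% in depleted cervix and 18.8% for the interaction. In NP depletion 3 members (33.3%) passed, beside 43.7% of all genes. The methods' t-test called 0 of 9 members after Benjamini-Hochberg adjustment in each of the 4 comparisons of groups, and at an unadjusted p under 0.05 it passed 2 in D21 against NP whole cervix (beside 26.1% of all genes), 1 in D21 depletion (beside 21.5%), 1 in NP depletion (beside 32.4%) and 0 in depleted cervix (beside 7.96%). In D21 against NP whole cervix the members had a median of -0.33 beside -0.08, in depleted cervix of 0.14 beside 0.02, and for the interaction of -0.45 beside -0.05.

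**Figure D2:**
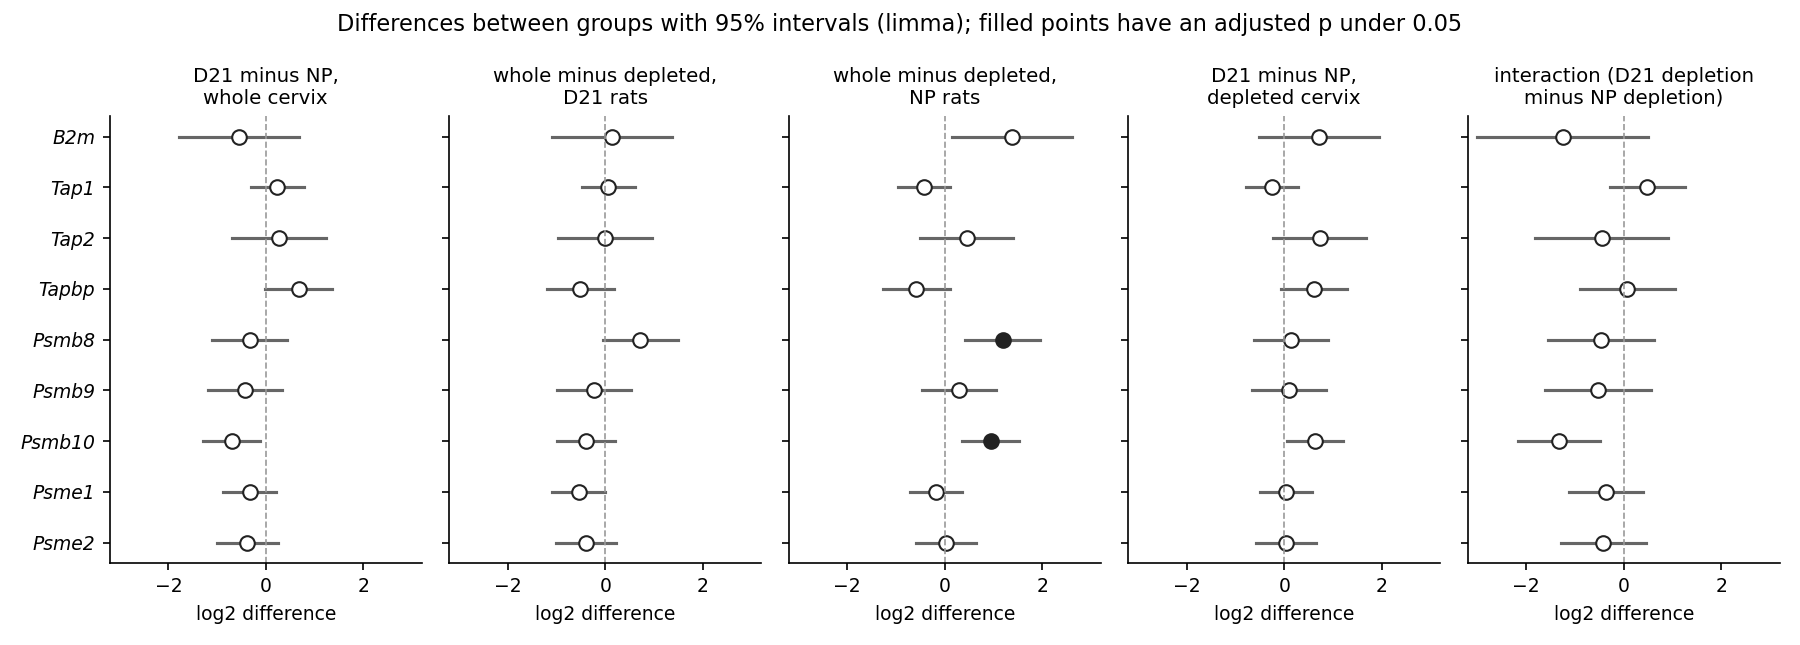
Differences in log2 level of the 9 genes for the 4 comparisons of groups and the interaction (horizontal axis), with 95% intervals from limma. Filled points, Psmb8 and Psmb10 in NP rats, have an adjusted p under 0.05.

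For the 4 comparisons of groups, the share of the 9 members whose groups did not overlap was set beside that of all genes. With so few members and with arrays shared between the comparisons, a lower share cannot be read as a result. The difference between the shares was not tested. In whole cervix, D21 and NP rats did not overlap for 3 of 9 members (33.3%, beside 44.3% of all genes): Tapbp was higher in every D21 rat, and Psmb10 and Psme1 were lower in every D21 rat. Whole and depleted cervix did not overlap for 3 members in D21 rats (33.3%, beside 44.5% of all genes) and for 3 in NP rats (33.3%, beside 47.0%). In depleted cervix the groups did not overlap for Psmb10 alone (11.1%, beside 17.1%).

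Psmb8, the subunit that takes the place of Psmb5, was the member whose whole and depleted rats did not overlap in either state and differed in the same direction in both. Its level was 2.13, 1.53 and 2.77 in whole NP cervix (rats 8, 9 and 10) and 1.97, 1.59 and 1.88 in whole D21 cervix (rats 5, 6 and 7). In depleted cervix it was 0.34, 1.27 and 1.25 in NP rats 5, 6 and 7, and 0.87, 1.04 and 1.36 in D21 rats 1, 2 and 4. All 6 whole arrays were above all 6 depleted arrays, a pattern found in 9.62% of all genes tested. In NP rats the difference was 1.19, a 2.27-fold higher level in whole cervix (standard error 0.35, 95% interval 0.42 to 1.95, adjusted p = 0.0224 from limma). In D21 rats it was 0.72 (95% interval -0.05 to 1.48, adjusted p = 0.149 from limma) and was not called. The difference between the states was not called (-0.47, adjusted p = 0.639 for the interaction in limma). The NP call was lost by the methods' t-test, in a fit of the 6 arrays alone, without the filter on background, with slide or scan day as a block, and without NP depleted rat 5 (0.88, adjusted p = 0.0862), NP whole rat 8 (1.19, adjusted p = 0.0621) or NP whole rat 10 (0.87, adjusted p = 0.0929), with adjusted p from 0.00281 to 0.315 over the alternatives of limma and the methods' t-test. All D21 whole arrays lay on a slide that held no depleted array, and with slide as a block the D21 difference turned to -0.53, while within the slide that held both NP groups, NP rats 8 and 9 were 0.58 above NP depleted rat 7.

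Psmb10, which takes the place of Psmb7, differed in opposite directions in the 2 states. In NP rats its level was 2.62, 1.97 and 2.62 in whole cervix (rats 8, 9 and 10) and 1.11, 1.91 and 1.38 in depleted cervix (rats 5, 6 and 7), and the groups did not overlap. The difference of 0.94, a 1.92-fold higher level in whole cervix, was called (standard error 0.27, 95% interval 0.35 to 1.52, adjusted p = 0.0195 from limma). In D21 rats the level was 1.76, 1.72 and 1.63 in whole cervix (rats 5, 6 and 7) and 2.33, 2.04 and 1.92 in depleted cervix (rats 1, 2 and 4). Every whole D21 rat was therefore below every depleted D21 rat, with a difference of -0.39 that was not called (95% interval -0.98 to 0.20, adjusted p = 0.297 from limma). As for Psmb8, all D21 whole arrays lay on a slide that held no depleted array. Whole and depleted cervix separated in opposite directions in the 2 states for 0.849% of all genes tested and, among the members, for Psmb10 alone. The interaction was -1.33 (standard error 0.38, 95% interval -2.17 to -0.50) with an adjusted p of 0.0979 from limma, so that it was not called. Between D21 and NP rats Psmb10 was -0.70 in whole cervix (adjusted p = 0.15 from limma) and 0.63 in depleted cervix (adjusted p = 0.202), neither of them called. With array weights it was called lower in whole D21 cervix (-0.85, adjusted p = 0.00285 from limma), as were Psmb9 (-0.57, adjusted p = 0.0456) and Psme2 (-0.50, adjusted p = 0.028). That setting called 2806 of 14056 genes lower, and the estimation of its weights stopped before convergence in some fits. For Psmb10 in depleted cervix, the lowest D21 rat at 1.92 was next to the highest NP rat at 1.91. The NP call was lost by the methods' t-test, in a fit of the 6 arrays alone, with normexp correction, without the filter, with slide or scan day as a block, and without NP depleted rat 5 (0.76, adjusted p = 0.0744), NP depleted rat 7 (0.89, adjusted p = 0.0566), NP whole rat 8 (0.83, adjusted p = 0.0795) or NP whole rat 10 (0.83, adjusted p = 0.0743), and its adjusted p ranged from 0.00168 to 0.141. At the study's threshold, an unadjusted p under 0.01 with at least a 2-fold change, Psmb8 alone of the members was called in NP rats, beside 13.6% of all genes called higher, and Psmb10 for the interaction, beside 5.0% called lower. Within the scan day that held all 4 groups, whole minus depleted was 1.03 in NP and -0.22 in D21 rats for Psmb10, and 0.89 and 0.45 for Psmb8, with 1 depleted rat in each case.

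**Figure D3:**
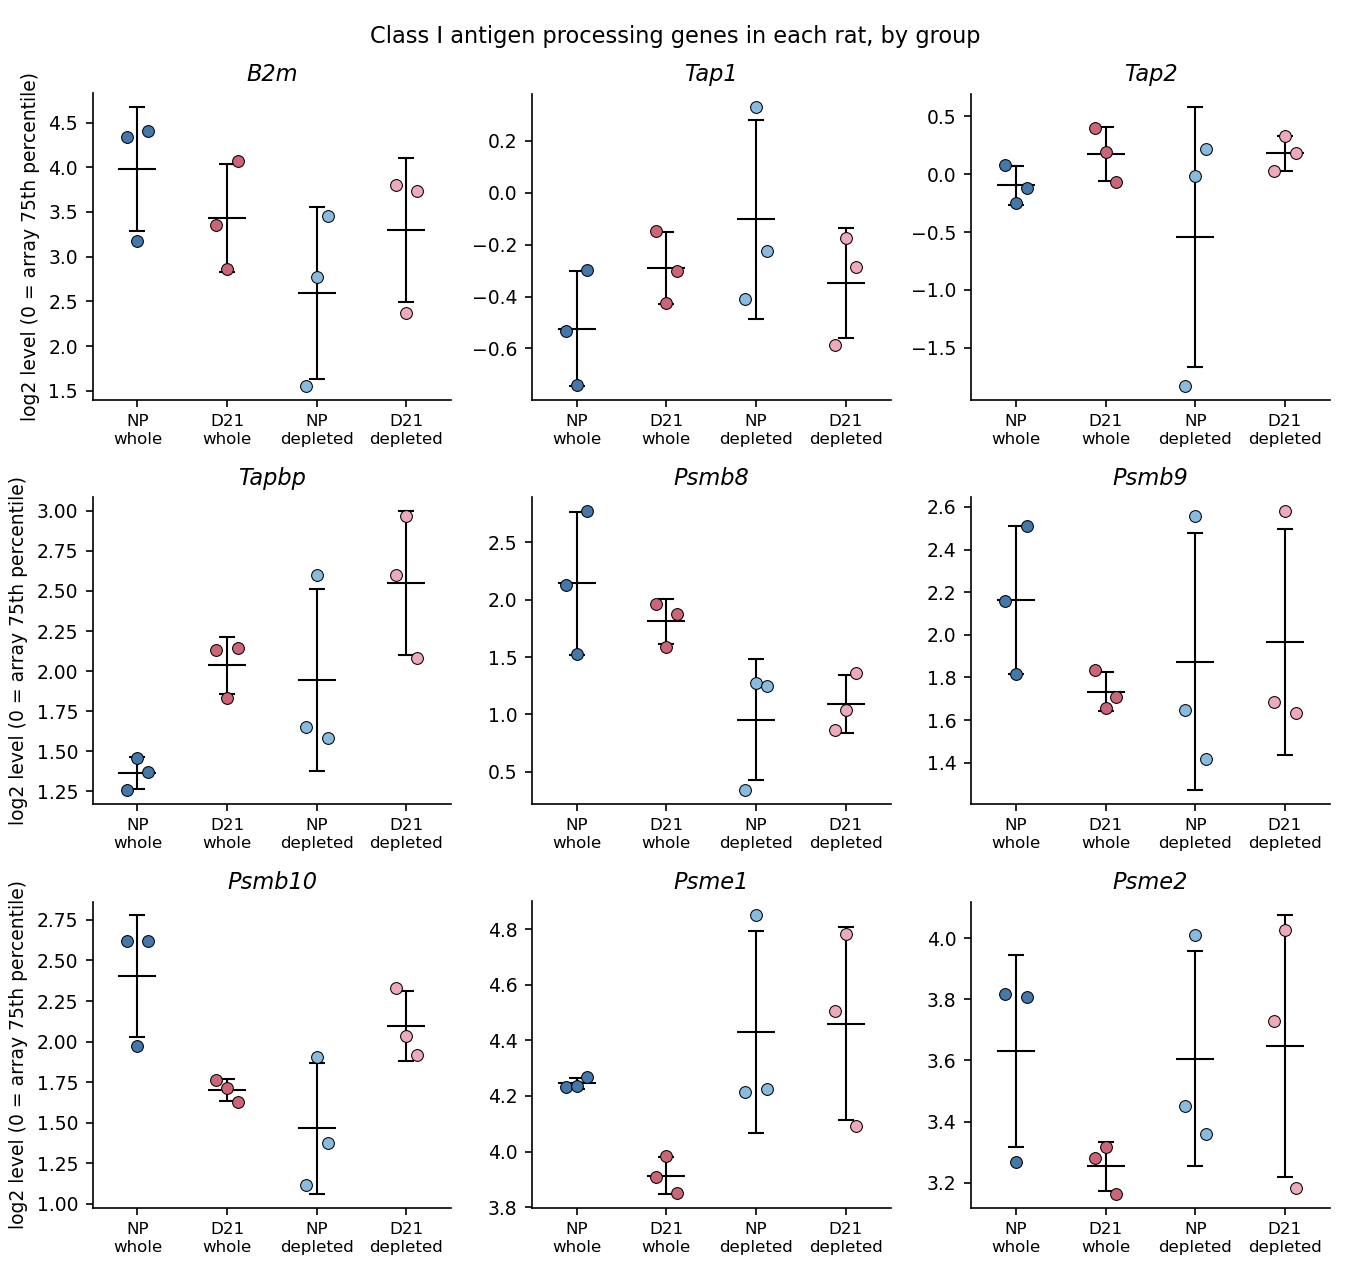
Log2 level (vertical axis, 0 is the 75th percentile of the array) of the 9 genes in each rat of the 4 groups. Points are rats, and bars are the mean and SD of 3 rats. Psmb8 lies between 1.53 and 2.77 on the whole arrays and between 0.34 and 1.36 on the depleted ones, and Psmb10 is higher in whole NP cervix and lower in whole D21 cervix than in the depleted cervix of the same state.

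Psmb9, which takes the place of Psmb6, was not called in any comparison of the fit without array weights. Its level was 2.16, 1.82 and 2.51 in whole NP, 1.84, 1.66 and 1.71 in whole D21, 1.65, 2.56 and 1.42 in depleted NP and 1.69, 2.58 and 1.64 in depleted D21 cervix. Rat 6 of the depleted NP and rat 2 of the depleted D21 group were above every whole rat, and the other depleted rats were at 1.69 or lower. The whole minus depleted difference was 0.29 in NP rats (95% interval -0.47 to 1.05) and -0.23 in D21 rats (95% interval -0.999 to 0.532).

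The immune subunits were also set against the constitutive subunits they replace. The log2 difference of the 2 probes within an array has no meaning of its own, since probes differ in brightness, but its change between groups shows whether the 2 subunits changed unequally. Psmb8 minus Psmb5 was -2.36, -2.25 and -1.39 in whole NP cervix and -3.99, -2.51 and -2.79 in depleted NP cervix. In D21 rats it was -1.57, -2.04 and -1.89 in whole and -2.86, -3.39 and -2.19 in depleted cervix. In both states the whole rats did not overlap with the depleted rats. Averaged over D21 and NP rats, Psmb8 was 1.04 higher relative to Psmb5 in whole cervix (0.98 in D21 and 1.10 in NP rats), with p = 0.005 in the exact two-sided permutation test, the smallest its 400 arrangements can give, and 0.03 after Benjamini-Hochberg adjustment over 6 tests. Psmb5 itself differed by -0.26 in D21 and 0.09 in NP rats and was not called. The share of all pairs of genes that reach a permutation p of 0.005 was not computed. Singly, 9.62% of all genes tested had all 6 whole arrays above all 6 depleted arrays, and 8.3% had them below. All D21 whole arrays lay on a slide that held no depleted array, so that slide and Mφ removal cannot be told apart in D21 rats. Within the scan day that held all 4 groups, the average difference for Psmb8 minus Psmb5 was 0.57. The adjusted p rose above 0.05 without any 1 of the 6 whole arrays or without NP depleted rat 5, with differences from 0.82 to 1.13 in these cases.

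Psmb9 relative to Psmb6 and Psmb10 relative to Psmb7 did not pass this test. The whole minus depleted difference was -0.46 for Psmb9 minus Psmb6 (exact permutation p = 0.195, adjusted 0.585) and -0.15 for Psmb10 minus Psmb7 (exact permutation p = 0.69, adjusted 0.828). The latter was the mean of -0.79 for D21 and 0.48 for NP rats. Between D21 and NP rats none of the 3 pairs passed, with differences of 0.22 for Psmb8 minus Psmb5, 0.04 for Psmb9 minus Psmb6 and 0.21 for Psmb10 minus Psmb7 (exact permutation p = 0.485, 0.925 and 0.56).

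**Figure D4:**
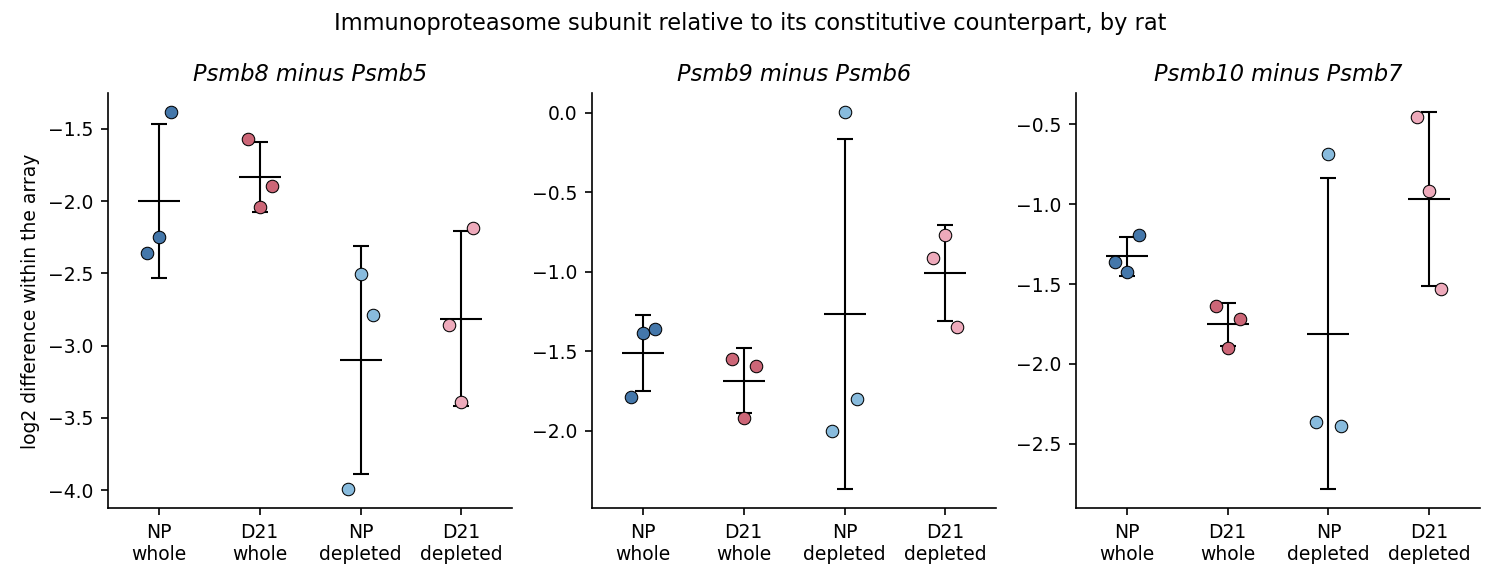
Log2 signal of each immunoproteasome subunit minus that of the constitutive subunit it replaces, within each array (vertical axis), by group. Points are rats, and bars are the mean and SD of 3 rats. For Psmb8 minus Psmb5 the whole rats of each state lie above the depleted rats of that state.

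The transporter subunits Tap1 and Tap2 were not called in any comparison. Tap1 was -0.53, -0.74 and -0.30 in whole NP, -0.15, -0.42 and -0.30 in whole D21, -0.41, 0.33 and -0.23 in depleted NP and -0.59, -0.17 and -0.29 in depleted D21 cervix. All 4 groups overlapped, and the largest difference between groups was whole minus depleted in NP rats at -0.42 (95% interval -0.96 to 0.12). Tap2 was 0.08, -0.25 and -0.12 in whole NP, 0.40, 0.19 and -0.07 in whole D21 and 0.03, 0.33 and 0.19 in depleted D21 cervix. In depleted NP cervix it was -1.83, -0.02 and 0.22. NP depleted rat 5, at -1.83, was the lowest of the 12 rats, and without it the whole minus depleted difference of Tap2 in NP rats went from 0.45 to -0.20, neither of them called.

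Tapbp, the chaperone that bridges the transporter and class I molecules, was higher in D21 than in NP rats by about the same amount in whole and in depleted cervix, without passing the test. Its level was 1.26, 1.46 and 1.37 in whole NP (rats 8, 9 and 10) and 2.13, 1.83 and 2.15 in whole D21 cervix (rats 5, 6 and 7), and these groups did not overlap. In depleted cervix it was 1.65, 2.60 and 1.58 in NP and 2.60, 2.97 and 2.08 in D21 rats, which overlapped. The D21 minus NP difference was 0.68 in whole (95% interval -0.0087 to 1.36, adjusted p = 0.226 from limma) and 0.60 in depleted cervix (95% interval -0.08 to 1.28, adjusted p = 0.279 from limma). Tapbp was called in whole cervix in a fit of the 6 whole arrays alone (adjusted p = 0.0374 from limma), beside 1337 of 14056 genes called higher. It was also called with array weights (adjusted p = 0.0117 from limma), beside 2366 of 14056 genes, and not in the other 18 alternatives. Whole cervix was lower than depleted cervix by -0.51 in D21 and -0.58 in NP rats, and in NP rats every whole rat was below every depleted rat, again without a call. The 4 group means ran from depleted D21 (2.55 ± 0.45, SD, n = 3) through whole D21 (2.04 ± 0.18) and depleted NP (1.94 ± 0.57) to whole NP (1.36 ± 0.10), and of the neighbours in this order only the last pair did not overlap.

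B2m, the light chain shared by all classical class I molecules, had the widest range of the members, 2.85 on the log2 scale. It was 4.34, 3.18 and 4.41 in whole NP, 3.36, 2.86 and 4.07 in whole D21, 1.56, 2.77 and 3.45 in depleted NP and 3.80, 2.37 and 3.73 in depleted D21 cervix. All neighbouring groups overlapped. In NP rats whole cervix was 1.38 higher (95% interval 0.15 to 2.61), with an adjusted p of 0.0807 from limma. B2m was called there with array weights, beside 3007 of 13409 genes called higher. It was also called without NP depleted rat 7 (1.81, adjusted p = 0.0423 from limma, beside 2282 of 15832 genes) and without NP whole rat 9 (1.78, adjusted p = 0.0461, beside 2143 of 13619). In D21 rats the difference was 0.13 (95% interval -1.10 to 1.36), with a direction that turned with slide as a block (-0.93) and with scan day as a block (-0.28).

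Psme1 and Psme2, the α and β subunits of PA28, were not called in any comparison. Psme1 was 4.23, 4.24 and 4.27 in whole NP and 3.91, 3.98 and 3.85 in whole D21 cervix, so that all D21 rats were below all NP rats by a mean of -0.33 (95% interval -0.87 to 0.21). In depleted cervix it was 4.21, 4.85 and 4.23 in NP and 4.50, 4.78 and 4.09 in D21 rats, and all whole D21 rats were below all depleted D21 rats (-0.55, 95% interval -1.09 to -0.0048, adjusted p = 0.126 from limma). The spread within the 2 whole groups was small beside that in the depleted groups, with an SD of 0.02 and 0.07 against 0.36 and 0.35. Psme2 ranged from 3.16 to 3.82 in whole and from 3.18 to 4.03 in depleted cervix. In D21 depletion Psme1 was called lower in whole cervix without D21 depleted rat 4 (-0.73, adjusted p = 0.0329 from limma), beside 3431 of 15730 genes called lower. It was also called lower there with array weights, beside 2267 of 14256 genes.

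Some rats stood at the end of the range for several members at once. NP depleted rat 5 was the lowest of the 12 rats for B2m, Tap2, Psmb8 and Psmb10. NP depleted rat 6 and D21 depleted rat 2 were the 2 highest of the 12 rats for Tapbp, Psmb9, Psme1 and Psme2. These 3 arrays were on the same slide and were scanned on the same day. After the group means were taken out, Pearson's r over the 12 arrays was 0.92 between Tapbp and Psme1, 0.87 between Psme1 and Psme2, 0.86 between Psmb9 and Psme2 and 0.70 between B2m and Psmb8, against -0.24 between B2m and Psme1. These correlations are descriptions over arrays that share slides and scaling.

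**Figure D5:**
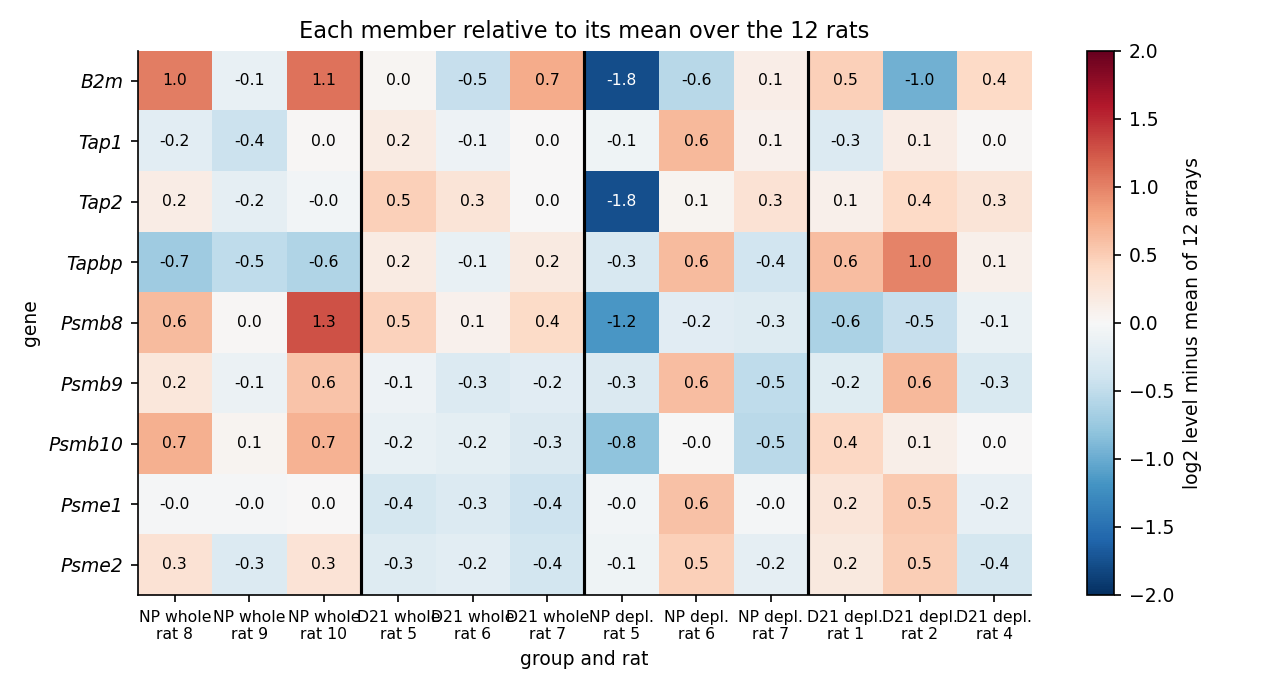
Log2 level of each of the 9 genes in each rat minus the mean of that gene over the 12 rats (colour and number), with the groups set apart by vertical lines. NP depleted rat 5 is lowest for B2m, Tap2, Psmb8 and Psmb10, and NP depleted rat 6 and D21 depleted rat 2 are highest for Tapbp, Psmb9, Psme1 and Psme2.

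The genes most like the members were sought among the 10919 genes well above background on all 12 arrays, by Pearson's r over the arrays with the mean of the 9 members after each was centred and scaled. They were BC090003 (r = 0.93), Cyba and Ncf4, which encode subunits of the phagocyte NADPH oxidase (r = 0.90 each), Stat2, a transducer of type I interferon signals (r = 0.86), and Slc43a2, an amino acid transporter (r = 0.86). None of the 5 was called in any of the 5 limma comparisons, and their whole minus depleted differences ran from -0.29 to 0.17 in D21 and from -0.01 to 0.44 in NP rats.

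The class I heavy chain genes, named RT1 in the rat, are many and near-identical, and rats of an outbred stock can differ in them, so that a probe may read several of them and single values are uncertain. In NP rats 24 of the 32 on the array passed the filter on background. All 24 were higher in whole cervix by value, with a median of 0.67 beside -0.04 over all genes tested. Of them 6 were called higher and 0 lower (25.0% called higher, beside 17.0% of all genes). Probes that read the same genes do not count as separate observations. RT1-CE6 did not pass the filter there and went the other way, with means of -5.10 in whole and -3.80 in depleted NP cervix. It was well above background on 0 and 2 of the 3 arrays. RT1-CE11 and RT1-Cl (1.35 and 1.34, adjusted p = 0.00651 and 0.0404 from limma) and RT1-M6-1 (1.07, adjusted p = 0.0125) had the largest called differences. With slide as a block 20 of 24 were higher by value and 0 were called, beside 1549 genes called higher and 1000 lower of 13409. With normexp correction 24 were higher by value and 1 was called (beside 1196 and 906), and with array weights 14 were called (beside 3007 and 2923). In D21 rats the median was 0.43, with 20 of 26 higher by value, 0 called higher (beside 11.9% of all genes) and 1 called lower (beside 10.5%). With quantile normalization 3 were called higher (beside 1551 of 14256 genes) and with the percentile over detected probes 2 (beside 2033). At an unadjusted p under 0.05 in limma 2 of 26 were higher and 2 lower, beside 38.9% of all genes in either direction. The methods' t-test called 0 after adjustment. Without adjustment 8 were higher and 1 lower at a p under 0.05 in that test, beside 21.5% of all genes in either direction. The gene called lower was RT1-CE6, which no whole D21 array measured well above background and whose level was at least 1.71-fold lower there (adjusted p = 0.036 from limma). Its call was lost in 15 of 19 alternatives, 6 of them with a rat left out. Between D21 and NP whole cervix RT1-N1 was lower in D21 rats (-1.43, adjusted p = 0.00966 from limma) and the other 24 of 25 tested were not called (beside 1.94% of all genes called lower).

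Among 12 tested genes of peptide loading and trimming, 3 were higher and 1 lower in whole cervix of D21 rats, and 2 were higher and 1 lower in NP rats. These are 25.0% and 8.33% in D21 rats, beside 11.9% and 10.5% of all genes, and 16.7% and 8.33% in NP rats, beside 17.0% and 15.8%. Most calls of genes outside the 9 members rested on the setting: of 31 such calls in the pathway lists, 30 were lost in at least 1 alternative, 22 of them when 1 rat was left out, and the call of Npepps in NP rats held in all 20. Canx, a lectin chaperone of new glycoproteins, was at 1.23, 1.01 and 1.14 in whole and at -1.39, -2.65 and 0.19 in depleted D21 cervix. Its difference of 2.41 (adjusted p = 0.0135 from limma) was 1.73 without D21 depleted rat 2, 3.15 without D21 depleted rat 4, and lost its call without D21 depleted rat 1 (2.36, adjusted p = 0.052). Pdia3, the disulphide isomerase of the loading complex, was higher by 1.36 in D21 and by 0.99 in NP rats (adjusted p = 0.00903 and 0.0198 from limma). Uggt1, which senses misfolded glycoproteins, was higher by 1.36 in D21 rats, a call that was lost without any 1 of the 6 D21 rats but depleted rat 4. Lap3, a leucine aminopeptidase, was higher by 1.90 in NP rats. Npepps, a cytosolic aminopeptidase, was lower in whole cervix, with differences of -0.80 for D21 and -1.22 for NP rats (adjusted p = 0.026 and 0.0014 from limma).

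Shares of the rest of the proteasome that were called were near or below those of all genes. Of 14 constitutive 20S subunits, 1 was called higher in whole cervix of D21 rats (Psma1, 0.75) and 2 in NP rats (Psmb1, 1.296, and Psma3, 1.13), with 0 lower and medians of 0.15 and 0.33. These are 7.14% and 14.3% called higher, beside 11.9% and 17.0% of all genes. Of 19 subunits of the 19S regulator, Psmd5 was higher and Psmd2 lower in whole D21 cervix (0.97 and -0.88) and Psmc6 higher in whole NP cervix (0.93), each 5.26% of the list. Among 7 other activators and assembly factors, the assembly chaperone Psmg2 was higher in whole D21 cervix (1.33), and Psme3, the γ subunit of PA28, which forms a nuclear activator of its own, was lower in whole NP cervix (-0.92). By value, all 14 constitutive 20S subunits were lower in D21 than in NP whole cervix (median -0.30 beside -0.08 over all genes), and 0 were called, with 0 also at an unadjusted p under 0.05 in limma and in the methods' t-test.

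Of 12 tested regulators and genes of interferon-γ signalling, 1 was called higher and 1 lower in whole D21 cervix (8.33% each, beside 11.9% and 10.5% of all genes). In NP rats 1 of 11 was called in each direction (9.09% each, beside 17.0% and 15.8%). Irf1, a transcription factor that binds the interferon-stimulated response element, was lower in whole than in depleted cervix in both states. The difference was -1.88 for D21 (adjusted p = 0.0219 from limma) and -1.70 for NP rats (adjusted p = 0.0195), while immediate-early genes were lower in whole cervix in the same comparisons (12 of 14 called in D21 and 11 of 12 in NP rats). The part of those genes' common difference in that of Irf1 was not tested. Ciita, the switch for class II genes, reached the well above background rating on 0 of the 12 arrays, and Nlrc5, the class I counterpart of Ciita, was not analysed here. Jak1, a kinase of the interferon receptors, was higher in whole D21 cervix (1.33, adjusted p = 0.0224 from limma), a call lost without any 1 of the 6 D21 rats but depleted rat 4. Socs1, an inhibitor of the same pathway, was higher in whole NP cervix (1.62, adjusted p = 0.00642 from limma).

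Other targets of interferon-γ were few on the tested list. In D21 rats 0 of 6 tested were higher (beside 11.9% of all genes) and 3 were lower (beside 10.5%) in whole cervix: the chemokine Cxcl10 (-2.68, adjusted p = 0.00726 from limma), the GTPase Igtp (-1.54) and the adhesion molecule Icam1 (-1.26). In NP rats 2 of 7 were higher (28.6%, beside 17.0% of all genes), the chemokine Cxcl9 (2.06, adjusted p = 0.0164 from limma) and the GTPase Gbp2 (1.49, adjusted p = 0.00976), and Icam1 was lower (-1.33), which makes 1 of 7 (14.3%, beside 15.8%). No whole D21 array measured Cxcl9 well above background, and it was at least 3.85-fold lower there than in whole NP cervix (adjusted p = 0.0236 from limma). That call was lost in 11 of 19 alternatives, 5 of them with a rat left out. None of these targets was called for the interaction in limma. At an unadjusted p under 0.05 in limma 2 of 7 were lower, beside 18.8% of all genes in either direction.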

How the data were processed

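The authors hybridised RNA from 12 rats to 1-colour Agilent arrays and deposited the intensity of each spot as written by Agilent Feature Extraction, with background subtracted and without normalization between arrays. They also deposited a table of values whose scale it does not name. Set against the intensities, these deposited values were the ratio of each probe's intensity to the array's 75th percentile. They served as an alternative. Groups and rat numbers came from the labels.

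Outlier and control spots were left out, spots of a probe were averaged, and log2 intensities were set relative to the array's 75th percentile. Of 30367 probes, 17320 were named through RefSeq accessions and the others kept the name of the array file. The brightest probe of a gene was used. Genes were tested where all 3 arrays of 1 or both groups compared had them well above background, with limma 3.58.1 in R 4.3.3 (lmFit, eBayes), 12 arrays in 1 fit without covariates, with Benjamini-Hochberg adjustment over all genes tested. For the interaction any of the 4 groups could pass the filter. Where a probe was at background on each array of a group, the fold is a bound. There each dim array took its own signal or its lowest well-above-background signal, whichever was higher, and these log2 values were averaged. Subunit pairs were tested by exact permutation within strata. Python 3.11.15 (numpy 2.4.6, pandas 2.3.3, scipy 1.17.1) did the rest. The fits were tested on simulated data.

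The members, the gene lists and the rule for named genes were chosen with earlier results of these data known. The text names all members, the constitutive counterparts, the regulators Nlrc5, Irf1 and Ciita, from each pathway list the 3 genes with the largest called change in each direction in a comparison, the 5 genes most like the members, and the markers Csf1r, Cd68, Adgre1 and Cd3e. Some other items of this rule, and 1 more promoter element that was searched for, are not reported here. Psma4 and Psmb3 were named after their promoter matches were seen. The lists were heavy chains, peptide loading and trimming, constitutive 20S, 19S, other activators and assembly, regulators, other interferon-γ targets, and markers of Mφs, T and NK cells, B cells, smooth muscle, fibroblasts, epithelium and endothelium, immediate-early and housekeeping genes. Of the lists not described elsewhere, in whole against depleted cervix of D21 and of NP rats, housekeeping genes gave 0 and 0 calls of 8 (medians -0.12 and -0.02), endothelial genes 3 of 10 higher, and 2 of 9 higher with 1 lower, T and NK cell genes 2 of 5 and 1 of 2 higher, and B cell genes 0 of 2 and 0 of 1. Over all genes 11.9% and 17.0% were called higher in these comparisons, and 10.5% and 15.8% lower.

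The 12 arrays lay on 4 slides and 3 scan days. The 6 whole arrays shared a scan day with D21 depleted rat 4 and NP depleted rat 7 only, and with slide or scan day as a block D21 depleted rat 1, alone on its slide and day, drops out of the fit. The number of arrays limits the precision: with 3 rats against 3, no p from exact permutation can be under 0.1. Alternatives were the study's threshold applied to the p of limma, the methods' t-test, 6 arrays only, normexp (offset 50), quantile normalization and the percentile over detected probes. Others were a filter on every array or none, probe means, array weights, a block for slide or for scan day, and the authors' values. Values within a scan day and leaving out each rat completed them. Columns of each table could all be matched to a sample. No proteins are shown, since no protein sequences were used here.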

Additional observations from a re-analysis of the deposited data

Results flagged for a closer look

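Psmb10 was the member whose whole and depleted rats separated fully in opposite directions in the 2 states: every whole NP rat was above every depleted NP rat, and every whole D21 rat was below every depleted D21 rat. This pattern was found in 0.849% of all genes tested. The difference between the 2 depletion contrasts was -1.33 on the log2 scale, with an adjusted p of 0.0979 from limma over all genes tested. It passed the study's threshold (unadjusted p under 0.01 and at least 2-fold), beside 5.0% of all genes called lower there. With array weights it passed the adjusted threshold (-1.70, adjusted p = 0.00823 from limma), beside 1503 of 14565 genes called lower. It also passed without D21 depleted rat 4 (-1.42, adjusted p = 0.0376 from limma), beside 1287 of 15906 genes called lower. The adjusted p ran from 0.00823 to 0.47 over the alternatives, and the direction was the same in each of the 23 alternatives run. All D21 whole arrays lay on a slide that held no depleted array, so that slide and Mφ removal cannot be told apart in D21 rats.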

How the results depend on the processing

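The number of members called depended on the setting. In NP rats 2 members were called in whole against depleted cervix. Over all 13409 genes tested there, 2276 were higher and 2122 lower. The number of members was 1 at the study's threshold applied to limma (1823 genes higher, 1442 lower) and with normexp correction (1196 and 906). It was 3 with array weights (3007 and 2923). The methods' t-test with or without adjustment, a fit of 6 arrays, no filter, and slide or scan day as a block gave 0. When a rat was left out it was 0 to 3, with 3 without NP whole rat 9 (2143 and 1876 of 13619 genes). In whole cervix D21 against NP gave 1 with 6 arrays (beside 1337 genes higher and 1209 lower of 14056) and 4 with array weights (2366 and 2806). Depletion in D21 rats gave 1 with array weights (2409 and 2267 of 14256) and 0 to 1 when a rat was left out. The 1 came without D21 depleted rat 4 (2891 and 3431 of 15730). The interaction gave 1 at the study's threshold applied to limma (356 and 728 of 14565), 1 with array weights (1386 and 1503) and 0 to 1 when a rat was left out. There too the 1 came without D21 depleted rat 4 (1197 and 1287 of 15906). The subunit pairs that passed for whole against depleted cervix were 1, and 0 to 1 when a rat was left out.

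No called difference of a member or other named gene turned its direction. Among the members' differences that were not called, several did. With normexp correction these were -0.11 for Tap1 and 0.16 for Tap2 in D21 depletion, -0.082 for Psme2 in NP depletion, and -0.21, -0.22 and -0.25 for Psmb9, Psme1 and Psme2 in depleted cervix. With quantile normalization they were 0.023 for Tap2 in D21 depletion, -0.020 for Psme2 in NP depletion, and -0.079, -0.18 and -0.18 for Psmb9, Psme1 and Psme2 in depleted cervix. With the percentile over detected probes they were 0.18 for Tap2 in D21 depletion and -0.026, -0.069, -0.13 and -0.12 for Psmb8, Psmb9, Psme1 and Psme2 in depleted cervix. With slide as a block they were -0.93, -0.32 and -0.53 for B2m, Tap1 and Psmb8 in D21 depletion, 0.12 for Psme1 in NP depletion and -0.027 for Tapbp in the interaction. Taking scan day instead gave -0.28 and 0.024 for B2m and Psmb9 in D21 depletion, 0.13 for Psme1 in NP depletion and -0.020 for Tapbp in the interaction. With array weights, whose estimation stopped before its convergence tolerance was reached in some fits, the interaction of Tapbp was -0.044. Between D21 and NP rats, Psmb9 minus Psmb6 was -0.0081 with normexp correction and -0.030 with quantile normalization. The cause was not tested.

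Leaving out a rat moved D21 depletion from -0.33 to 0.41 for B2m, -0.40 to 0.073 for Psmb9, -0.062 to 0.14 for Tap1 and -0.12 to 0.12 for Tap2, and NP depletion from -0.29 to 0.027 for Psme1, -0.099 to 0.23 for Psme2 and -0.20 to 0.83 for Tap2. It moved D21 minus NP in depleted cervix from -0.17 to 0.29 for Psmb8, -0.21 to 0.43 for Psmb9, -0.13 to 0.24 for Psme1 and -0.15 to 0.27 for Psme2, and the interaction from -0.83 to 0.19 for Tap2 and -0.26 to 0.28 for Tapbp. Between D21 and NP rats it moved Psmb8 minus Psmb5 from -0.00032 to 0.38 and Psmb9 minus Psmb6 from -0.14 to 0.36, and between whole and depleted cervix Psmb10 minus Psmb7 from -0.29 to 0.13. Of the 35 calls of other named genes, 2 passed in each alternative and 33 were lost in at least 1.

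Calls over all genes, which set the background of the members' counts, moved too. In NP depletion 2276 genes were higher and 2122 lower, against 1196 and 906 with normexp correction, 852 and 572 by the methods' t-test unadjusted, 518 and 316 after adjustment, and 1549 and 1000 with slide as a block. In D21 depletion 1693 were higher and 1500 lower, against 214 and 96 with normexp correction, 8 and 4 by the adjusted t-test, 45 and 9 with slide as a block and 548 and 338 when the block was scan day. With the percentile over detected probes the split in D21 depletion was 2033 and 1037, and the median of all genes moved from -0.06 to 0.13. In whole cervix 554 were higher and 272 lower in D21 rats, against 79 and 11 with normexp correction, 1337 and 1209 with 6 arrays, 2366 and 2806 with array weights and 31 and 32 with slide as a block. In depleted cervix 485 and 130 became 169 and 26 with 6 arrays and 222 and 31 with normexp correction, and for the interaction 64 and 286 became 1386 and 1503 with array weights and 5 and 50 with slide as a block.

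No paired analysis was possible because no 2 groups compared share 2 rat numbers that mark the same animal, since each rat gave 1 array.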
